A study of Mus musculus with 6 samples.

Results

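Interferon-stimulated genes are the genes that cells switch on after sensing interferon, and 39 of them were chosen by symbol and looked up in the RNA-seq values of hematopoietic stem cells (HSCs) from mice given insulin-like growth factor 1 (IGF1) and from controls. Of the 39 genes, 38 have a row among the 21878 gene symbols, and all 38 passed the filter of at least 1 FPKM in at least 3 libraries, as 10449 genes did in all. FPKM is the number of fragments on a gene scaled to the length of the gene and to the depth of the library, so levels can be compared between genes. Mx1 was not analysed here. An interferon pathway list of 81 further genes, with 65 tested, was read beside them.

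Both groups were HSCs from the bone marrow (BM) of WT mice, C57BL/6 in the methods, sorted as Lineage-Sca1+c-Kit+ cells that lack CD34 and Flk2. Mice of the IGF1 group had received recombinant mouse IGF1 under the skin, 200 µg/kg in 1 dose, and were read at day 1, and control mice had received vehicle. Each group has 3 libraries, age is not given, and the labels do not say whether libraries came from separate mice, so the p-values may measure technical spread only. The extraction note in the labels names irradiated mice where the treatment label and the series design name IGF1, and the treatment label was followed.

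Type I interferons signal through IFNAR1 and IFNAR2 to the kinases JAK1 and TYK2. STAT2 and IRF9 take part in the complex that then binds the interferon-stimulated response element in the promoters of antiviral genes. Interferon gamma uses IFNGR1 and IFNGR2 and acts on gamma-activated sites, with IRF1 and the immunity-related GTPases among the well-known targets. In HSCs, interferon is known to push dormant cells into cycle, and to raise Sca1, the surface protein of Ly6a, which is itself part of the sort gate.

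The 6 libraries did not separate cleanly by group. Reads on listed genes, recovered from the steps of the FPKM values, came to between 10956036 and 15668571 per library. Of the variance, 93.2% fell on principal component 1, where control replicates 1 and 3 were at -64.7 and -64.8, the IGF1 libraries between 36.6 and 37.8, and control replicate 2 at 17.8. Between control replicates 1 and 3 the mean chi-squared per gene was 1.52, where counting error alone gives about 1, and between control replicate 2 and these it was 216 and 218. Against the IGF1 libraries control replicate 2 gave 23.2 to 26.4. Among the IGF1 libraries themselves it was 1.669 to 1.865. Values without control replicate 2 are therefore given beside many results, and its label was not tested. The libraries left without it differ within each group by little more than counting error. Very small adjusted p-values without control replicate 2 may thus measure technical spread only.

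The sorted cells were checked against marker genes. Kit was at 24.2 to 105 FPKM, while the stem cell genes Hoxb5 and Slamf1 lay at 0.279 to 0.691 and 0.736 to 2.41 FPKM. Transcripts of Cd34 (230 to 640 FPKM) and of Flt3 (117 to 188 FPKM), the gene of Flk2, were present in every library although the gate excludes both proteins. The granule gene Mpo lay at 1610 to 1700 FPKM, and the T cell gene Cd3e at 0 to 0.206 FPKM, although Nkg7 (356 to 787 FPKM) and Lck (26.6 to 32.3 FPKM) of the same T and NK cell list were present in every library. In bulk RNA, fewer cells of a type and less RNA per cell cannot be told apart.

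The promoters show what most of the genes with a matched promoter share besides their name. RefSeq promoters (250 bases before to 50 after the start, GRCm38.p6) were matched for 31 of the 39 genes. The core of the response element, GAAANNGAAA on either strand, was in 19 of the 31 (61.3%), against 1079 of 27025 genes in the table (3.99%). The core of the gamma-activated site, TTCNNNGAA, which reads as itself on both strands, was in 9 of the 31 (29%), against 9.55% of all genes. All 6 GTPases hold the response element core, and so do Isg15, Oas3 and Bst2, whose values across the libraries took other courses. Ifit1, Ddx58 and Ifih1 hold it too, and were lower with IGF1 as the GTPases were. Matches of both cores were counted separately, whether or not they overlap. The 8 windows are printed to set the promoters of genes with different courses side by side. Capitals mark the response element core on either strand, overlapping matches joined, and each window is written along the strand of its gene.
Irgm1, chr11:48871405-48871474, minus strand: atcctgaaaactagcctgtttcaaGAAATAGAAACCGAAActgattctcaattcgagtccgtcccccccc
Irgm2, chr11:58214883-58214952, plus strand: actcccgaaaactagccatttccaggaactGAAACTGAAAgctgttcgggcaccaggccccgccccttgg
Igtp, chr11:58199492-58199561, plus strand: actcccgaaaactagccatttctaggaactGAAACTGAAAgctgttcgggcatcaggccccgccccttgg
Gbp2, chr3:142620574-142620643, plus strand: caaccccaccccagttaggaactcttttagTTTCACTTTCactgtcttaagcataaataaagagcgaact
Isg15, chr4:156200845-156200914, minus strand: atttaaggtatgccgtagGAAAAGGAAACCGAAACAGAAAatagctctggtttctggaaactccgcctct
Oas3, chr5:120777695-120777764, minus strand: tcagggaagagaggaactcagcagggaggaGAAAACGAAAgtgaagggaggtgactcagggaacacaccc
Bst2, chr8:71537557-71537626, minus strand: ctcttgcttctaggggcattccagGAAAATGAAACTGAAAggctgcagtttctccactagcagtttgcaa
Ifit1, chr19:34640774-34640843, plus strand: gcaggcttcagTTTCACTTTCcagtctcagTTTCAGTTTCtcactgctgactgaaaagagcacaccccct

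The motif did not part the genes by direction. The median log2 fold change was -0.22 over the 19 genes with the response element core and -0.24 over the 12 without it. A match of these letters is a description of the promoter and not a site shown to be bound.

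The comparison of IGF1 with control asked whether interferon-stimulated genes changed in HSCs at day 1. The genes did not share 1 direction, since 17 of the 38 genes had a log2 fold change above 0 and 21 below 0, on the log2(FPKM + 1) scale. All 6 guanylate-binding and immunity-related GTPases among the 38 were lower with IGF1, and 3 of them, Irgm2, Gbp2 and Irgm1, were the only genes of the 38 called. The antiviral effectors Isg15, Irf7, Bst2, Zbp1 and Xaf1 were higher in all 3 IGF1 libraries than in control replicates 1 and 3, but control replicate 2 lay within or above the IGF1 range, and none of them was called. The median over the 38 genes was -0.13, beside -0.18 over all genes tested.

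Calls needed more than a 2-fold change and, in limma, a Benjamini-Hochberg adjusted p below 0.05 across the 10449 genes. By this rule 3 of the 38 genes were called lower, where 4.63% of all genes were, and 0 were called higher, where 1.98% of all genes were. At an unadjusted p under 0.05 in limma, 2 were higher (5.26%, against 19% of all genes) and 15 lower (39.5%, against 34.4% of all genes). On the adjusted p alone 13 of the 38 (34.2%) were lower against 14.1% of all genes, and 0 were higher against 6.26%. That 13 was 8 under 75th percentile scaling, 9 under quantile normalization and 9 with length and GC trends removed. It was 0 with the replicate block, and 0 with any library other than control replicate 2 left out. Without control replicate 2, 17 passed as lower and 18 as higher, so the lean to 1 side did not hold. The groups did not overlap for 16 genes with IGF1 lower (42.1%, against 37.4% of all genes) and for 3 with IGF1 higher (7.89%, against 21.9%). With any library other than control replicate 2 left out, 0 of the 38 were called, with 3 to 5 lower at an unadjusted p under 0.05 and the fold. Without control replicate 2, 9 genes were called lower (23.7%, against 20.6% of all genes) and 5 higher (13.2%, against 12.3%).

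**Figure D1:**
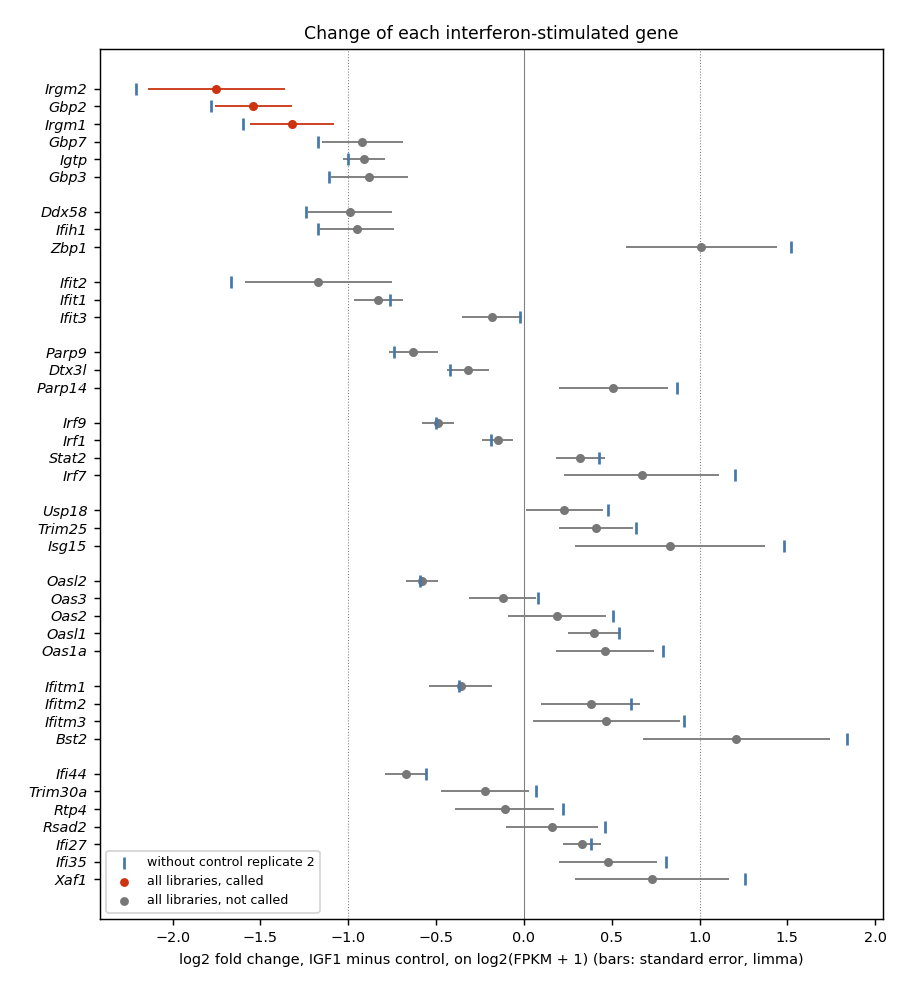
Log2 fold change of each of the 38 genes, IGF1 minus control on log2(FPKM + 1), with the standard error from limma (points and bars, n = 3 per group), and the same without control replicate 2 (blue ticks); red marks the 3 called genes. Irgm2, Gbp2 and Irgm1 lie left of -1, and the ticks of Isg15, Irf7, Bst2, Zbp1 and Xaf1 lie right of 1.

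The GTPases are interferon gamma-inducible proteins that act on the vacuoles of intracellular pathogens, and Irgm1 is known to be needed for HSC maintenance under interferon. Values are given for replicates 1, 2 and 3 of each group in that order. Irgm2, a regulatory immunity-related GTPase, was at 18.9, 6.53 and 18.0 FPKM in the control and 3.35, 3.22 and 3.05 FPKM in the IGF1 libraries. Gbp2, a guanylate-binding protein, was at 29.3, 17.2 and 28.7 FPKM against 7.33, 7.95 and 7.87 FPKM. In both genes every IGF1 library lay under every control, and control replicate 2 lay between. Irgm2 fell by 1.75 (SE 0.39, adjusted p = 0.0412, limma), and Gbp2 fell by 1.54 (SE 0.22, adjusted p = 0.0287, limma), on the log2 scale. Irgm1, the regulatory GTPase with the highest level of these 3, was at 75.4, 41.7 and 75.8 FPKM against 24.4, 24.3 and 23.9 FPKM. It fell by 1.32 (SE 0.24, adjusted p = 0.0359, limma), again with control replicate 2 between the groups. With length and GC trends removed Irgm1 missed the fold at -0.91 and was not called.

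The other 3 GTPases passed the adjusted p but not the fold. Igtp, also called Irgm3 and the third regulatory immunity-related GTPase, was at 65.1, 52.6 and 63.0 FPKM against 31.7, 32.3 and 30.4 FPKM, a log2 fold change of -0.91 (SE 0.12, adjusted p = 0.0286, limma). Gbp7, a guanylate-binding protein, was at 24.8, 14.3 and 25.3 FPKM against 11.0, 9.86 and 10.8 FPKM, a log2 fold change of -0.92 (adjusted p = 0.0466, limma). Gbp3, its neighbour on the chromosome, was at 28.3, 17.3 and 29.2 FPKM against 12.0, 14.6 and 11.8 FPKM, a log2 fold change of -0.88 (adjusted p = 0.0467, limma). Without control replicate 2 all 3 were called lower, Igtp at -1.0, Gbp7 at -1.17 and Gbp3 at -1.11. All 6 GTPases were lower in each of the 15 alternatives to the processing, with Irgm2 between -2.21 and -1.17 and Gbp3 between -1.11 and -0.50. Control replicate 2 lay at a median of 57% of the way from the other controls to the IGF1 mean in these 6 genes.

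In the GENCODE annotation (GRCm38), Igtp lies at chr11:58199556-58207591 and Irgm2 at chr11:58199618-58222782 on the same strand. The 2 models overlap, so reads could be split between them and both values are uncertain. Irgm1 lies apart at chr11:48861968-48871683. Gbp7 (chr3:142530342-142550149), Gbp3 (chr3:142560026-142573209) and Gbp2 (chr3:142620602-142638008) stand in 1 cluster of related genes on the plus strand. Neutrophil granule genes went both ways. Of the 11 markers of that list 4 were called lower (Ngp, Camp, S100a8 and S100a9), with Ngp at 79.0, 11.5 and 78.2 FPKM against 2.22, 3.73 and 3.47 FPKM. Elane, at 92.8, 576 and 92.4 FPKM against 709, 696 and 692 FPKM (log2 fold change 2.03, adjusted p = 0.0726, limma), and Prtn3 (1.14, adjusted p = 0.0808, limma) were on the other side of 0 and not called, and Mpo was at -0.01. The summed level of the list was 2830 to 3960 FPKM in the controls and 4140 to 4170 FPKM with IGF1, and none of the markers was at 0 in every library. Their part in the result was not tested.

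**Figure D2:**
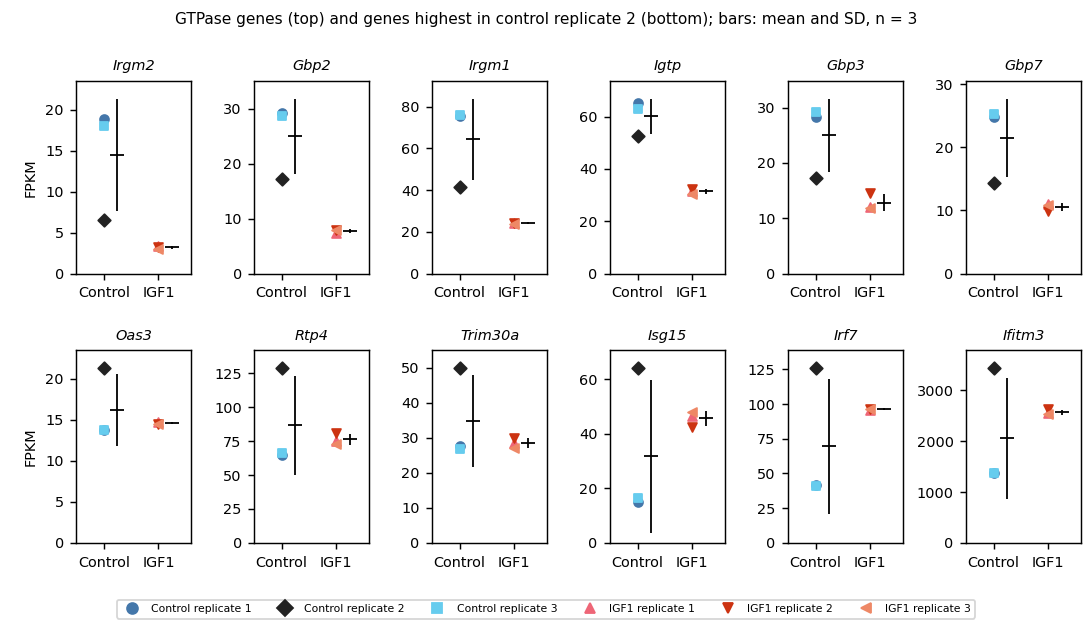
FPKM of the 6 GTPase genes (top) and of 6 genes with their highest value in control replicate 2 (bottom), 1 point per library, with the mean and SD of each group (n = 3). In the top row all IGF1 points lie under all control points, and in the bottom row the black diamond of control replicate 2 lies above every other point.

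The RNA sensors Ddx58 and Ifih1 were lower as well, past the adjusted p but not the fold. Ddx58, which encodes RIG-I, was at 13.6, 7.61 and 13.7 FPKM against 5.47, 5.66 and 4.53 FPKM, and its log2 fold change was -0.99 (SE 0.24, adjusted p = 0.0455, limma). Ifih1, which encodes the long double-stranded RNA sensor MDA5, was at 10.5, 6.3 and 10.3 FPKM against 3.65, 4.53 and 4.04 FPKM, with a log2 fold change of -0.95 (SE 0.21, adjusted p = 0.0412, limma). Neither pair of groups overlapped, and both genes passed the fold as well once control replicate 2 was left out (-1.24 and -1.17). Zbp1, a sensor of Z-form nucleic acid that can start necroptosis, took the other course, at 6.15, 19.6 and 6.0 FPKM in the control and 20.0, 18.3 and 19.8 FPKM in the IGF1 libraries. Control replicate 2 lay among the IGF1 libraries, and the log2 fold change of Zbp1 was 1.01 (SE 0.43, adjusted p = 0.102, limma), or 1.52 (adjusted p = 3.5e-09, limma) without that library.

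The 3 IFIT genes, whose products bind viral RNA, stand side by side on chromosome 19 and did not move together. Ifit1 was at 15.9, 18.9 and 16.6 FPKM against 9.11, 10.6 and 7.94 FPKM, with a log2 fold change of -0.83 (SE 0.14, adjusted p = 0.0321, limma), and here control replicate 2 was the highest library. Ifit2 was at 12.0, 3.73 and 12.7 FPKM against 3.11, 2.88 and 3.58 FPKM, so that control replicate 2 stood next to the IGF1 libraries. Its log2 fold change of -1.17 did not pass (SE 0.42, adjusted p = 0.0742, limma), and was -1.67 (adjusted p = 2.12e-08, limma) without control replicate 2. Ifit3 overlapped between groups, with a log2 fold change of -0.18, and is uncertain because it is close in sequence to Ifit3b.

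The factors that carry the signal differed among themselves. Irf9, a DNA-binding partner of STAT2, was at 55.1, 52.6 and 52.5 FPKM against 37.2, 38.3 and 37.9 FPKM, with a log2 fold change of -0.49 (SE 0.09, adjusted p = 0.0337, limma). The 3 controls agreed closely for this gene. Stat2 had non-overlapping groups with IGF1 higher (0.32, adjusted p = 0.107, limma). Irf1, a factor downstream of interferon gamma, overlapped between groups at -0.15. Irf7, the amplifier of type I interferon production, was at 41.9, 126 and 40.8 FPKM against 95.5, 96.7 and 96.8 FPKM. Control replicate 2 was the highest of the 6 libraries for Irf7, whose log2 fold change of 0.67 (SE 0.44, adjusted p = 0.235, limma) became 1.2 (adjusted p = 4.05e-10, limma) without it.

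Isg15 encodes the ubiquitin-like protein that is joined to other proteins in the interferon response, and Usp18 the enzyme that removes it and damps the receptor. Isg15 was at 14.9, 64.2 and 16.5 FPKM against 46.4, 42.6 and 47.9 FPKM, and control replicate 2 was 4.09 times the mean of the other controls. Its log2 fold change was 0.83 (SE 0.54, adjusted p = 0.237, limma) with all libraries, 1.48 (adjusted p = 6.2e-09, limma) without control replicate 2, and -0.07 once trends on gene length and GC content were removed. The direction of Isg15 thus turned with the processing. Usp18 (0.23) and Trim25 (0.41), the ubiquitin ligase that activates RIG-I, overlapped between groups, and were at 0.48 and 0.64 without control replicate 2.

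The OAS genes encode enzymes and relatives that sense double-stranded RNA. Oasl2 was at 41.7, 41.0 and 42.0 FPKM against 26.9, 27.3 and 28.3 FPKM, with a log2 fold change of -0.58 (SE 0.09, adjusted p = 0.0287, limma) and 3 controls that agreed closely. Oasl1, its neighbour on chromosome 5 and a repressor of Irf7 translation, had non-overlapping groups in the opposite direction (0.40, adjusted p = 0.0786, limma). Oas3 was at 13.7, 21.3 and 13.7 FPKM against 14.7, 14.5 and 14.5 FPKM. For Oas3 control replicate 2 was alone above 5 libraries that lay between 13.7 and 14.7 FPKM, and the log2 fold change was -0.12 (adjusted p = 0.607, limma), or 0.08 without that library. Oas1a (0.46) and Oas2 (0.19) overlapped, and were at 0.79 and 0.51 without control replicate 2. Oas1a has close paralogs, so its reads may be shared.

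The Ifitm genes had the highest levels of all 38 genes in every library. Ifitm1, Ifitm2 and Ifitm3 encode small proteins that block the entry of viruses. Ifitm3 was at 1370, 3440 and 1370 FPKM against 2560, 2630 and 2530 FPKM, and Ifitm2 at 1570, 2520 and 1550 FPKM against 2380, 2410 and 2350 FPKM. Both overlapped between groups through control replicate 2, with log2 fold changes of 0.47 (adjusted p = 0.37, limma) and 0.38 (adjusted p = 0.287, limma). Both turned negative once length and GC trends were removed, at -0.46 (adjusted p = 0.0398, limma) and -0.70 (adjusted p = 0.0467, limma). They passed the adjusted p there but not the fold. Under quantile normalization they were at -0.42 and -0.59. Without control replicate 2 Ifitm3 was at 0.91 and Ifitm2 at 0.61, short of the fold. Ifitm1 was at 1600, 1590 and 1620 FPKM against 1230, 1280 and 1230 FPKM, with no overlap and a log2 fold change of -0.36 (adjusted p = 0.142, limma). It was called lower under quantile normalization (-1.31, adjusted p = 0.0465, limma) and with length and GC trends removed (-1.05, adjusted p = 0.0461, limma). These paralogs lie together on chromosome 7, and their reads may be shared.

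Bst2 encodes tetherin, which holds budding virus at the cell surface. It was at 143, 538 and 148 FPKM in the control and 543, 522 and 503 FPKM in the IGF1 libraries, so that control replicate 2 lay within the IGF1 range. Its log2 fold change of 1.21 (SE 0.53, adjusted p = 0.106, limma) was 1.84 (adjusted p = 3.8e-11, limma) without control replicate 2 and 0.23 with length and GC trends removed. Bst2 is also a marker of plasmacytoid dendritic cells, and Siglech, a defining marker of these, was at 0.672 to 1.14 FPKM in the 6 libraries. The summed level of the 6 markers of that list was 30.1 to 201 FPKM in the controls, with 201 FPKM in control replicate 2, and 255 to 266 FPKM with IGF1. Most of it was Cox6a2 and Ly6d, no marker of the 6 was at 0 in every library, and the part of these genes in the result was not tested.

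**Figure D3:**
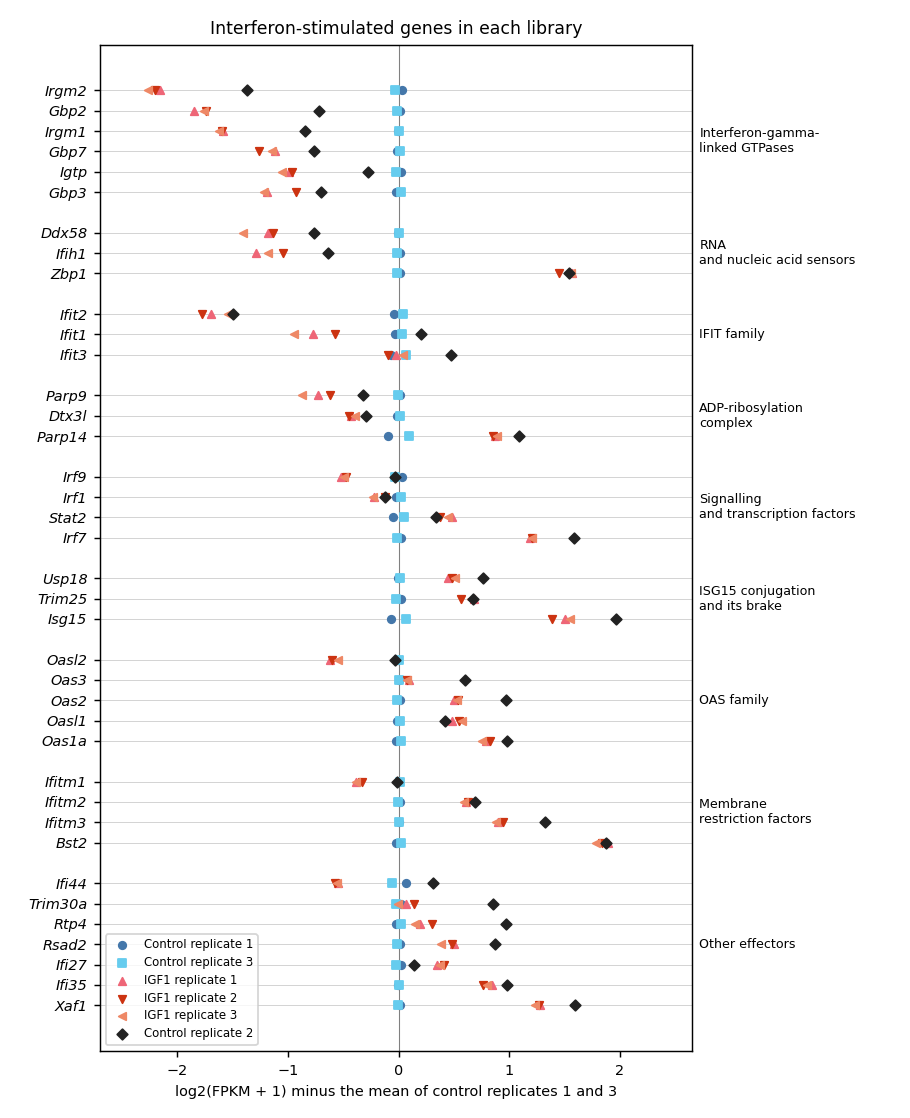
Each of the 38 genes in each library, as log2(FPKM + 1) minus the mean of control replicates 1 and 3, grouped by role. Control replicates 1 and 3 lie near 0 and the 3 IGF1 libraries close together, while control replicate 2 (black diamonds) lies between them for the GTPases and beyond the IGF1 libraries for Isg15, Irf7, Ifitm3 and Xaf1.

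Among the other effectors, Ifi44 was at 31.6, 37.8 and 28.9 FPKM against 20.3, 20.0 and 20.2 FPKM, with a log2 fold change of -0.67 (SE 0.12, adjusted p = 0.0363, limma). With length and GC trends removed Ifi44 was at -0.14 (adjusted p = 0.639, limma). Xaf1, a partner of the apoptosis inhibitor XIAP, was at 16.2, 50.7 and 16.0 FPKM against 40.5, 40.3 and 39.3 FPKM. Its log2 fold change of 0.73 (adjusted p = 0.206, limma) was 1.26 (adjusted p = 1.14e-09, limma) without control replicate 2, which was the highest library. Ifi27 had non-overlapping groups with IGF1 higher (0.33, adjusted p = 0.0679, limma), and was at -0.36 with length and GC trends removed. Ifi35 (0.48) and Rsad2 (0.16), which encodes the antiviral enzyme viperin, overlapped, and were at 0.81 and 0.46 without control replicate 2.

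Rtp4 and Trim30a were set apart by control replicate 2 alone. Rtp4, a chaperone of receptors at the membrane, was at 64.5, 129 and 66.5 FPKM against 75.2, 80.8 and 72.9 FPKM. Trim30a, a brake on Toll-like receptor signalling, was at 27.6, 49.9 and 26.8 FPKM against 28.6, 30.0 and 27.1 FPKM. In both, the IGF1 libraries lay close to control replicates 1 and 3, and the log2 fold changes were -0.11 (adjusted p = 0.758, limma) and -0.22 (adjusted p = 0.477, limma), or 0.22 and 0.07 without control replicate 2.

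The ADP-ribosylation genes cluster on chromosome 16. Parp9, whose product works with the ubiquitin ligase DTX3L, was at 21.3, 16.7 and 21.0 FPKM against 12.4, 13.4 and 11.1 FPKM, with a log2 fold change of -0.63 (SE 0.14, adjusted p = 0.0412, limma). Dtx3l had non-overlapping groups with IGF1 lower (-0.32, adjusted p = 0.0803, limma). Parp14, the least abundant of the 3, overlapped at 0.51, with control replicate 2 the highest library, and was at 0.87 without it. Parp9 (chr16:35938470-35972605, plus strand) and Dtx3l (chr16:35926511-35939151, minus strand) overlap head to head, and whether the counting used strand is not given in the sources used here.

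Control replicate 2 was the highest of the 6 libraries for 17 of the 38 genes (44.7%), against 15.2% of all genes tested. It stood at least 0.5 on the log2 scale above each of the other 5 libraries for 3 genes, Oas3, Rtp4 and Trim30a, as 1 control did for 0.392% of all genes. It exceeded every IGF1 library for 31 of the 38 genes (81.6%), against 49.7% of all genes. On the scale that sets the other controls at 0% and the IGF1 mean at 100%, control replicate 2 stood at a median of 84% over the 26 genes with a gap of at least 0.5, and 81% over all such genes. It passed 100% in 12 of the 26 (46.2%), against 21.3% of all genes. These are counts from 1 library, with no test. Markers of other cells were also high in that library. The 9 B cell markers summed to 121 to 498 FPKM in the controls, with 498 FPKM in control replicate 2, and to 474 to 493 FPKM with IGF1, while Ms4a1 lay at 0.0429 to 0.339 FPKM. The 9 erythroid markers summed to 42.2 to 114 FPKM in the controls, with 114 FPKM in control replicate 2, and to 57.0 to 63.1 FPKM with IGF1. No marker of either list was at 0 in every library, and their part in the result was not tested.

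**Figure D4:**
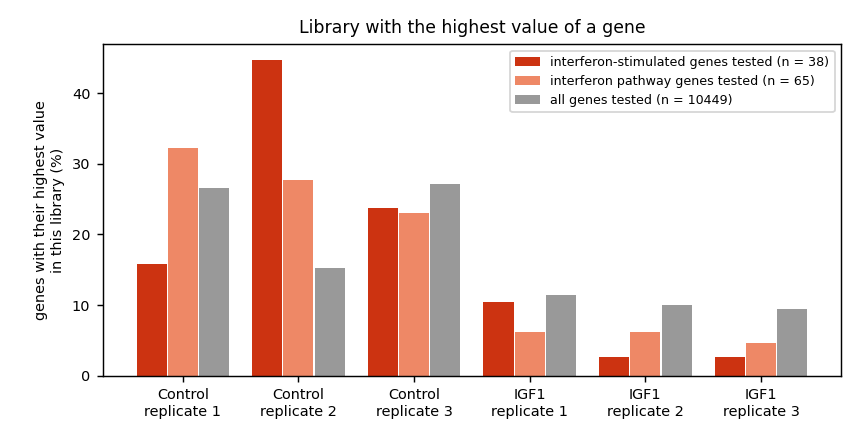
Percent of genes whose highest value is in each of the 6 libraries, for the 38 interferon-stimulated genes, the 65 other pathway genes and all 10449 genes tested. Control replicate 2 holds the highest value of 44.7% of the interferon-stimulated genes, 27.7% of the pathway genes and 15.2% of all genes.

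The receptors and kinases upstream were read from the pathway list, of which 65 of 81 genes were tested. Of these, 4 were called lower (6.15%, against 4.63% of all genes) and 0 higher (against 1.98%). At an unadjusted p under 0.05 in limma 29 were lower (44.6%, against 34.4%) and 6 higher (9.23%, against 19%), and on the adjusted p alone 16 were lower (24.6%, against 14.1%) and 2 higher (3.08%, against 6.26%). Without control replicate 2, 13 were called lower (20%, against 20.6% of all genes) and 2 higher (3.08%, against 12.3%), and without any other single library 0 were called, with 3 or 4 lower at an unadjusted p under 0.05 and the fold. Ifngr1, the ligand-binding chain of the interferon gamma receptor, was at 119, 55.0 and 117 FPKM against 36.7, 39.5 and 34.8 FPKM, and was called lower (log2 fold change -1.29, SE 0.31, adjusted p = 0.0445, limma). Ifngr2, its partner chain, gave -0.49 (adjusted p = 0.0921, limma). Among the type I receptor chains, Ifnar1 gave -0.96 (adjusted p = 0.0556, limma) and Ifnar2 0.21 (adjusted p = 0.193, limma). Neither of these was called, but without control replicate 2 Ifnar1 was called lower (-1.29, adjusted p = 2.65e-08, limma).

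Jak1, the kinase that both receptor types use, was at 74.6, 29.1 and 75.4 FPKM against 25.6, 24.1 and 25.4 FPKM, and its log2 fold change of -1.10 did not pass (adjusted p = 0.0673, limma), while without control replicate 2 Jak1 was called lower (-1.55, adjusted p = 3.15e-10, limma). Tyk2 gave -0.42 (adjusted p = 0.0644, limma). Control replicate 2 was close to the IGF1 libraries for Jak1.

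The other 3 called genes were Mavs, Iigp1 and Tgtp1. Mavs, the adaptor of RIG-I and MDA5 on mitochondria, was at 20.5, 12.2 and 20.5 FPKM against 7.44, 7.86 and 7.83 FPKM, a log2 fold change of -1.07 (SE 0.21, adjusted p = 0.0369, limma). With length and GC trends removed Mavs missed the fold at -0.97. It was also not called under quantile normalization, 75th percentile scaling or a pseudocount of 5. Iigp1, an effector immunity-related GTPase, was at 20.7, 14.9 and 22.1 FPKM against 6.0, 6.03 and 6.37 FPKM, a log2 fold change of -1.49 (SE 0.17, adjusted p = 0.0286, limma). Iigp1 missed the fold at -0.90 with length and GC trends removed. Tgtp1, a further GTPase of the same family, was at 33.3, 21.0 and 36.2 FPKM against 5.37, 5.12 and 6.21 FPKM, a log2 fold change of -2.21 (SE 0.22, adjusted p = 0.0286, limma). In all 3 the groups did not overlap and control replicate 2 was the lowest control. The guanylate-binding genes Gbp5 and Gbp6 of the pathway list were not called. Gbp5 overlapped between groups (-0.31, adjusted p = 0.49, limma), with control replicate 2 the lowest library. Gbp6 was lower without overlap (-0.51, adjusted p = 0.0477, limma). Ly6a, the gene of the sort marker Sca1, was at 219, 615 and 231 FPKM against 385, 387 and 374 FPKM. It was the 1 pathway gene with control replicate 2 at least 0.5 above each other library, and its log2 fold change was 0.28 (adjusted p = 0.577, limma), or 0.76 without that library.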

How the data were processed

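The 39 genes, the roles, the pathway list and the marker lists were chosen with earlier results of these data known. The authors deposited 1 FPKM value per gene symbol and library. Their methods name fastp, RSEM and DESeq2, and the submitters' processing notes name fastp, HISAT2, StringTie, GRCm38 and mm10, so which quantifier made the values is unsure. The unit is not stated and was taken as FPKM. The values of a gene rise in whole steps, which gave whole reads within 0.01 read for 14833 of 14838 genes. Any unit that scales reads by gene and by library would give such steps, so they do not single out FPKM. The sums per library differed, from 466135 to 680285, as those of a unit with a fixed sum would not. Reads of a gene were taken as the smallest whole numbers that fit every library, so read totals are lower bounds. Genes without such a fit, Mpo among them, are left out of the totals. No count test was run, as the unit is no count.

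The filter kept any gene that reached 1 FPKM in 3 or more of the 6 libraries. Values were set on a log2(FPKM + 1) scale, and 3 IGF1 were compared with 3 control libraries by limma (version 3.58.1, lmFit and eBayes with trend, under R 4.3.3). The pseudocount of 1 understates changes of low genes. Fold changes over 2 with a Benjamini-Hochberg adjusted p under 0.05 were called, the thresholds of the study's methods. The code was tested on simulated data. An exact permutation test of 3 against 3 libraries cannot go below p = 0.1 and was not used. Depth and precision are limited by reads per gene, from 111 to 25705 per library over the 38 genes.

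Values in every library are given for genes called, with groups apart by at least 0.5, with 1 control above the others by 0.5, or among the 3 most abundant. Isg15, Irf7, Irf9, Bst2, Zbp1 and Xaf1 fall outside this rule, as does Jak1 for its library values, and their choice came after seeing the values. The alternatives were quantile and 75th percentile scaling, a filter at 5 FPKM or none, a pseudocount of 0.1 or of 5, length and GC trends removed, a replicate block alone and with these trends, and leaving out each library. Motifs were searched in RefSeq promoters, and gene positions came from the GENCODE annotation of GRCm38. Some genes of the lists are not reported here.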

Additional observations from a re-analysis of the deposited data

How the results depend on the processing

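The count of interferon-stimulated genes called lower, 3 with all libraries, was 5 with a pseudocount of 0.1 and ranged from 0 to 9 with 1 library left out, 9 being without control replicate 2 and 0 without any other. The count called higher was 0, and 0 to 5 with 1 library left out, 5 being without control replicate 2. The pathway genes called lower, 4 with all libraries, were 2 with length and GC trends removed and 0 to 13 with 1 library left out, 13 being without control replicate 2. Those called higher, 0 with all libraries, were 1 with a pseudocount of 0.1 and 0 to 2 with 1 library left out. The number of interferon-stimulated genes with 1 control above all other libraries, 3, was 6 with length and GC trends removed. It was 0 without control replicate 2 and 11 without control replicate 1 or 3, and stayed 3 without any IGF1 library. Control replicates 1 and 3 differed by at most 0.19 on the log2 scale in the interferon-stimulated genes. With both present, neither can thus stand 0.5 above the other, and leaving out 1 lifts that bar. Irgm2 is an example, at 18.9 and 18.0 FPKM in these 2 libraries and 6.53 FPKM in control replicate 2. The cause was not tested for the other counts.

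The replicate numbers were not taken as a pairing. Deviations of same-numbered libraries from their group means had correlations of -0.057, -0.05 and 0.006. This check cannot decide on a pairing, because the IGF1 libraries differ among themselves by little more than counting error. With the replicate block 0 interferon-stimulated genes and 0 pathway genes were called lower in limma, and likewise 0 and 0 with the block and length and GC trends removed, where at an unadjusted p under 0.05 and the fold 4 and 5, and then 3 and 2, were lower.

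Scaling to the 75th percentile moved the median over all genes from -0.18 to 0.04, and that over the 38 genes from -0.13 to 0.11. Log2 fold changes that turned sign under it were Ifit3 at 0.02, Irf1 at 0.10, Oas3 at 0.12, Rtp4 at 0.15 and Trim30a at 0.03. Under quantile normalization they were Irf1 at 0.08, Oas3 at 0.22, Ifitm2 at -0.59, Ifitm3 at -0.42, Rtp4 at 0.03, Trim30a at 0.08 and Dtx3l at 0.02. With length and GC trends removed, with or without the block, they were Isg15 at -0.07, Ifitm2 at -0.70, Ifitm3 at -0.46, Ifi27 at -0.36, Ifi35 at -0.02 and Trim30a at 0.34. With 1 library left out they were Oas3, from -0.22 to 0.08, Rtp4, from -0.28 to 0.22, and Trim30a, from -0.37 to 0.07, and in each the value above 0 was that without control replicate 2. The cause was not tested. With length and GC trends removed Irgm1 missed the fold at -0.91, and Ifitm1 was called lower there and under quantile normalization. With these trends removed Ifit1 (-0.35), Irf9 (-0.27), Oasl2 (-0.29), Ifi44 (-0.14), Parp9 (-0.28), Gbp3 (-0.50) and Gbp7 (-0.61) no longer passed the adjusted p. Ifitm1, Ifitm2 and Ifitm3 passed it there, all lower. The filters and the pseudocount of 5 moved no call of the 38 genes, but the minimum of 5 FPKM left 35 of them.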

Other observations

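Over all genes tested, 41 had 1 control at least 0.5 on the log2 scale above each of the other 5 libraries, and these genes were chosen after their values were seen. Besides Oas3, Rtp4, Trim30a and Ly6a, they included further genes known as interferon targets. Cxcl10, an interferon-induced chemokine, was at 5.9, 10.8 and 7.33 FPKM in control replicates 1, 2 and 3 and at 6.96, 5.93 and 5.85 FPKM in the IGF1 libraries. Trim30d, a close relative of Trim30a and therefore uncertain, was at 4.65, 8.04 and 5.31 FPKM against 4.75, 4.88 and 4.35 FPKM.

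The largest margin was that of the hemoglobin gene Hbb-bs, at 5.57, 33.2 and 4.08 FPKM against 9.47, 5.67 and 9.95 FPKM. Hba-a1, which encodes the other globin chain, was at 5.81, 31.2 and 10.4 FPKM against 10.5, 16.0 and 13.2 FPKM. The lymphoid receptor gene Il7r was at 2.6, 8.43 and 2.51 FPKM against 3.87, 4.02 and 3.44 FPKM. These values rest on 1 library and have no test.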
